A study of Mus musculus with 11 samples.

Results

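The transcripts described here are the noncoding RNAs that the deposited annotation of mouse embryonic stem cells (ESCs) takes from GenBank, the public archive of sequence records. They were chosen by the source prefix that the deposited tables put before each feature name, with no use of measured values. They number 1597 of the 48945 features of the series, all of them present in the table of the Dicer libraries and 1109 also in the table of the cMyc libraries. By accession prefix, 1499 are AK records, 65 are BC records and 33 carry other prefixes.

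Poly(A)-selected RNA was sequenced as directional libraries from ESCs of strain 129S4/SvJae that grew without feeder cells on gelatin. The Dicer comparison had 2 wild-type libraries (Dcr WT) and 3 libraries from separate Dicer knockout lines (Dcr KO lines 1, 3 and 4), all paired-end. The cMyc comparison had 1 library from cells whose cMyc alleles are floxed (cMyc flox) and 1 from cells knocked out for cMyc (cMyc KO), both single-end and from another ESC line, so the comparisons share no library. No label says that the wild-type libraries came from separate cultures, so p-values cover the spread of these libraries only.

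GenBank holds many mouse cDNAs that were cloned and sequenced as single transcripts, before a gene model or a gene name existed for them. The AK series consists largely of full-length cDNA clones made by RIKEN from many mouse tissues and cell types, and the BC series of clones from the Mammalian Gene Collection. A noncoding record of this kind names a transcript whose function is usually unknown. Dicer cuts precursor hairpins into mature microRNAs, which repress target RNAs, and Myc is a transcription factor that acts at many ESC promoters. The title of the series places both in a circuit that bears on long noncoding RNAs, which is the question these comparisons address. The tables pair no GenBank identifier with a gene name, and 0 of the 1597 matched a gene symbol, so the members are called by their identifiers.

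The libraries held 101815723 to 278006158 reads in the Dicer set, and 24660365 (cMyc flox) and 31633011 (cMyc KO) in the cMyc set. Dicer1, which encodes Dicer, stood at normalised read counts of 20131 and 18792 in the wild-type libraries and at 8553, 9793 and 7743 in the knockout lines. Reads that remain can lie outside the deleted part of the gene, so this level is no full check of the labels. Myc stood at 10984 and 7478 in Dcr WT and at 1253, 1054 and 443 in Dcr KO, and had 446 reads in cMyc flox and 12 in cMyc KO. Of 24 genes of the Dicer, microRNA and Myc machinery, 5 fell and 8 rose in Dcr KO, with a median log2 fold change of 0.34. Of 8 ESC markers 1, Tdgf1, fell, and none of the 8 was near 0. Markers of other cell types also moved between the Dicer genotypes. Of 7 fibroblast markers measured, 6 were tested, of which 4 fell and 1 rose. Their summed level was 5462 and 10683 in Dcr WT and 828 to 1280 in Dcr KO. Postn, not tested, was at 38.3 in wild-type library 2 and at 0 in library 1 and in all 3 knockout lines. Of 4 endoderm markers tested 2 fell and 0 rose, with Afp at 0 in every Dicer library and summed levels of 2005 to 3223 and 2047 to 2405. Of 4 mesoderm markers 3 fell and 1, Kdr, rose (summed 1074 to 1752 and 4974 to 9490). Neural markers (1 fell and 2 rose of 4, summed 10823 to 13426 and 15724 to 18780) and trophoblast markers (1 fell and 2 rose of 4, summed 1414 to 2968 and 2386 to 4450) moved as well. The part of such cells in the results below was not tested. In bulk RNA, fewer cells that express a transcript and less of it per cell cannot be told apart.

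Most GenBank noncoding transcripts were present at low read counts. A read was found for 1058 and 1141 of the 1597 in the wild-type libraries and for 1132, 1179 and 1162 in knockout lines 1, 3 and 4. There was a read in all 5 libraries for 959 members and in none for 308. A normalised read count is the deposited unit, in which 1 read is worth between 0.764 (line 3) and 2.01 (wild-type library 1). Members whose value reached 1 in 2 or more Dicer libraries were tested, which left 1184 tested and 413 not tested, each of the latter with at most 16 reads over all 5 libraries. Over the 1184, the median of the mean normalised read count was 31.5, with quartiles of 11.1 and 101. The same median was 2737 for coding features and 54.1 for all features tested. None of these levels is corrected for transcript length. The 10 members with the highest counts held 20.1% of the summed value of the class.

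As a share of all reads, the class did not differ between the Dicer genotypes beyond the spread of the libraries. It took 0.0647% and 0.0789% of the reads of wild-type libraries 1 and 2. In knockout lines 1, 3 and 4 it took 0.0625%, 0.0719% and 0.0816%, so the groups overlapped. The means were 0.0718 ± 0.010% (SD, n = 2) and 0.0720 ± 0.0096% (SD, n = 3), a difference of 0.000228 percentage points (exact permutation test, two-sided p = 1, where the smallest p this design allows is 0.2). The sign of so small a difference was not stable. It was -0.00108 points with coding reads as the denominator, -0.00687 points without wild-type library 1 and -0.00457 points without line 4.

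Single transcripts did change. Of the 1184 members tested, 104 fell and 124 rose in Dcr KO (limma, Benjamini-Hochberg adjusted p under 0.05 over 42358 features), which is 8.78% and 10.5%. Over all features tested, the shares called lower and higher were 14.8% and 16.9%. The other 956 members did not pass. The median log2 fold change of the 1184 was 0.01, with quartiles of -0.71 and 0.83, against 0.08 for all features, and 583 members (49.2%) lay below 0. At an unadjusted p under 0.05, 183 members were lower and 181 higher. On whole reads, edgeR called 108 lower and 111 higher, where the shares over all features were 15.3% and 15.6%, and DESeq2 called 122 and 122, against 16.2% and 16.7%. All 3 tools called 96 members lower and 109 higher, a count not given here over all features. Fewer members were called when a knockout line was left out, namely 63 lower and 72 higher when it was line 1, 57 and 56 for line 3, and 61 and 60 for line 4. Calls over all features also dropped, from 6273 lower and 7171 higher to 4335 and 4386 without line 1. They were 3847 and 3782 without line 3, and 4275 and 4378 without line 4. Every knockout line lay below every wild-type library in 286 members (24.2%) and above in 281 (23.7%), where all features gave 27.4% and 30.0%.

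**Figure D1:**
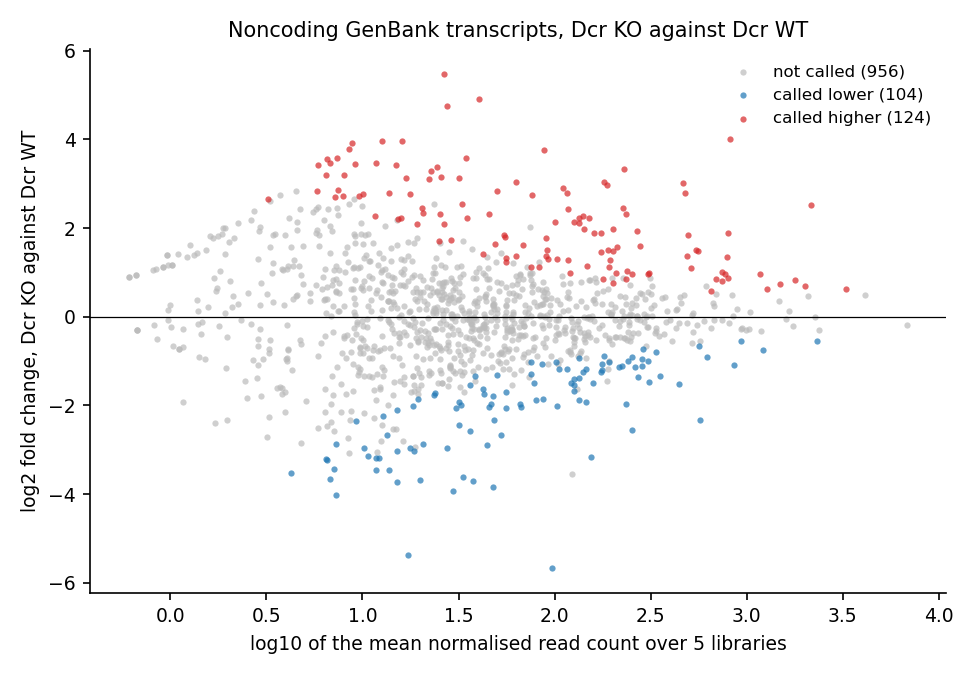
Log2 fold change of each of the 1184 tested GenBank noncoding transcripts in Dcr KO against Dcr WT (vertical axis) by the log10 of its mean normalised read count over 5 libraries (horizontal axis). The 104 called lower and the 124 called higher lie on both sides of a cloud of 956 others whose centre is near 0.

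The changes that passed were mostly of at least 2-fold, as they were over all features. Sizes ran from 0.54 to 5.67 on the log2 scale among the 104 members that fell, with a median log2 fold change of -1.87. The change was at least 2-fold in 91 of them, at least 4-fold in 44 and at least 8-fold in 22. Among the 124 that rose, sizes ran from 0.57 to 5.47, with a median of 2.12, and 105, 65 and 29 reached these folds. Over all features, 4375 of the 6273 that fell and 5189 of the 7171 that rose changed at least 2-fold. At a mean of 10 to 100, every called member (52 lower and 48 higher) and every called coding feature (544 and 243) did. At 100 to 1000, 31 of 42 and 41 of 54 members did, against 857 of 1045 and 446 of 550 coding features. These sizes are differences of log2(value + 1), a scale on which the change of a low feature comes out too small. Of the members that fell, 28 were left with a value under 10 in every knockout line. Of those that rose, 36 had been under 10 in both wild-type libraries. A mean of at least 100 was found in Dcr WT for 56 of the 104 that fell and in Dcr KO for 68 of the 124 that rose. No counts over all features are given here for these levels or for the 4-fold and 8-fold changes, so they are not read as traits of the class.

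Among members with a mean at or above the class median of 31.5, the largest decrease was in AK137524. Its normalised read count was 366 and 108 in wild-type libraries 1 and 2 and 1.77, 1.53 and 7.65 in knockout lines 1, 3 and 4. The wild-type libraries differed from each other, yet both were far above all 3 lines. Its log2 fold change was -5.67 ± 0.76 (SE, limma adjusted p = 0.000705), with -4.79 without wild-type library 1 and -6.55 without library 2. AK082843, a transcript with a higher read count, stood at 241 and 424 in Dcr WT and at 31.9, 27.5 and 49.0 in Dcr KO. This 9.21-fold decrease (log2 fold change -3.15 ± 0.40, limma adjusted p = 0.000521) left no overlap between the groups. AK080501 fell from 105 and 110 to 16.0, 5.35 and 3.06, a log2 fold change of -3.83. In this transcript the wild-type libraries were nearly equal and line 1 was the highest of the knockout lines. AK080629 fell from 98.6 and 72.1 to 7.10, 3.82 and 6.12 (log2 fold change -3.71), and AK134823 from 82.5 and 101 to 7.99, 8.40 and 21.4 (-2.90).

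AK177407, AK049592 and AK145793 completed the 8 largest decreases, and in each of them wild-type library 2 was above library 1. AK177407 stood at 40.2 and 111 in Dcr WT and at 9.76, 3.82 and 2.30 in Dcr KO (log2 fold change -3.62). AK049592 stood at 60.4 and 158 against 12.4, 13.7 and 18.4 (-2.66). AK145793 stood at 44.3 and 101 against 19.5, 9.17 and 6.12 (-2.58, limma adjusted p = 0.0136). Without library 1 and library 2 in turn, the log2 fold changes were -4.34 and -2.89 for AK177407, -3.34 and -1.97 for AK049592, and -3.16 and -1.99 for AK145793. The call of AK145793 was lost without wild-type library 2 (limma adjusted p = 0.0645), line 3 (0.0514) or line 4 (0.0540).

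The largest increase among members of at least median level was in AK038409, which had 0 reads in wild-type library 1. Its normalised read count was 0 and 3.65 in Dcr WT and 55.9, 95.5 and 48.2 in Dcr KO. The fitted log2 fold change of 4.91 depends on that low wild-type level, and was 3.80 without library 1 and 6.01 without library 2. AK156724 rose from 68.4 and 86.7 to 1208, 1804 and 922. The increase was 16.9-fold (log2 fold change 4.02 ± 0.29, limma adjusted p = 3.98e-05), and the lowest knockout line was far above both wild-type libraries. AK144697 rose 14.5-fold, from 12.1 and 7.30 to 124, 164 and 134, with the 3 lines close together. AF230110 rose 11.0-fold, from 30.2 and 35.6 to 234, 324 and 523, and AK138671 rose 10.5-fold, from 4.02 and 5.48 to 51.5, 35.9 and 62.0.

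In the other 3 of the 8 largest increases the wild-type libraries disagreed. AK017011 stood at 16.1 and 0 in Dcr WT and at 26.6, 58.8 and 71.9 in Dcr KO. Its log2 fold change of 3.58 (limma adjusted p = 0.0290) became 5.63 without wild-type library 1 and 1.53 without library 2. The call was lost without library 2 (limma adjusted p = 0.0636), line 1 (0.0810), line 3 (0.101) or line 4 (0.128). AK139582 stood at 76.4 and 11.9 against 169, 294 and 355 (log2 fold change 3.05, with 4.34 without library 1 and 1.75 without library 2). AK156128 stood at 4.02 and 25.6 against 82.5, 92.4 and 109 (3.04, with 1.84 and 4.24 in the same order). Both lost their call without line 4 (limma adjusted p = 0.0584 and 0.0506).

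**Figure D2:**
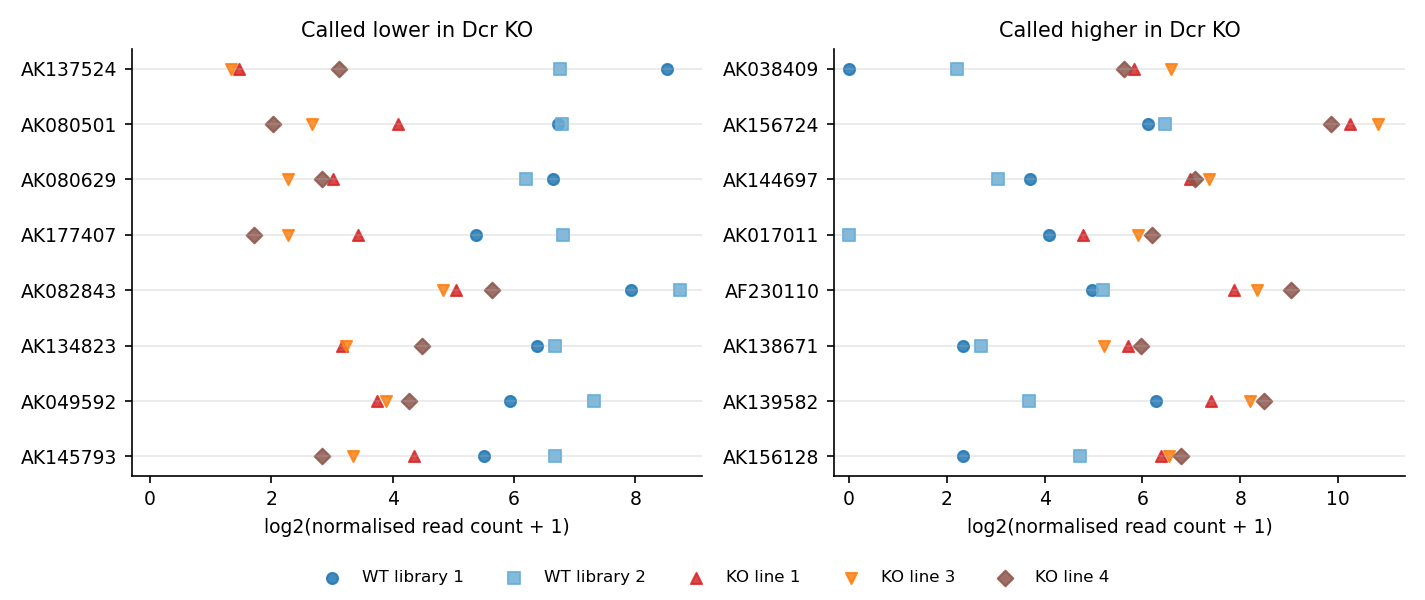
Log2(normalised read count + 1) in each Dicer library (horizontal axis) for the 8 GenBank noncoding transcripts with the largest decrease (left) and the 8 with the largest increase (right), 1 row per transcript, points marked by library. In all 16 rows the 3 knockout lines lie on 1 side of both wild-type libraries. The wild-type points lie furthest apart for AK017011, followed by AK139582, AK156128 and AK038409.

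Some of the called transcripts were read in 1 genotype alone, for which no count over all features is given here. AK144827, AK158947 and BC085134 had no read in any knockout line. BC085134, the highest of them, stood at 28.2 and 58.4 in Dcr WT (14 and 64 reads). Set against a floor of 3 reads per library, it was at least 17.9-fold lower in Dcr KO, AK144827 at least 7.52-fold and AK158947 at least 4.39-fold. The call of AK158947 was lost without line 3 (limma adjusted p = 0.0535). Conversely, 10 members that rose had no read in either wild-type library. AK082626 was the highest of these, at 35.5, 55.8 and 41.3 in knockout lines 1, 3 and 4 (40, 73 and 54 reads), which is at least 10.1-fold above the same floor. The other 9 had knockout means of 5.34 (AK087713) to 15.3 (AK084624), and 8 of them lost their call without at least 1 library. The call of AK087713 was also lost with edgeR and DESeq2 (adjusted p = 0.0919 and 0.108).

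Among the 6 members with the highest read counts, 4 did not pass the test and 2 passed with changes of under 2-fold. AK078503, the member with the highest count, stood at 6381 and 8447 in Dcr WT and at 5943, 7045 and 6408 in Dcr KO. The groups overlapped, and the log2 fold change was -0.19 (limma adjusted p = 0.416). AK140886 stood at 2505 and 4302 against 4077, 5008 and 4771 (0.49, limma adjusted p = 0.126), again with overlap. AK042287 stood at 3042 and 2352 against 2120, 2135 and 2242, where the groups did not overlap but the change of -0.31 did not pass (limma adjusted p = 0.191). BC012645 stood at 2370 and 2135 against 1917, 2115 and 2766 (-0.01). AK033782 rose from 2048 and 2954 to 4020, 3595 and 3856 (0.63 ± 0.18 SE, limma adjusted p = 0.0272), and AK209856 fell from 3012 and 2677 to 2062, 2160 and 1655 (-0.54 ± 0.17 SE, limma adjusted p = 0.0402). Both calls were lost without wild-type library 1 (limma adjusted p = 0.126 and 0.0977) or without any 1 knockout line (up to 0.104 and 0.111), and that of AK033782 also with total count scaling (0.0680).

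Of the 21 members with a mean of at least 1000, 2 fell and 7 rose. The second that fell was AK219861, from 1324 and 1912 to 993, 894 and 958 (log2 fold change -0.75, limma adjusted p = 0.0197). Its call was lost without wild-type library 2 or any 1 knockout line (limma adjusted p up to 0.0922). AK034834 stood apart among the members that rose. It went from 406 and 760 in Dcr WT to 2694, 3484 and 3458 in Dcr KO, an increase of 5.51-fold (2.52 ± 0.26 SE, limma adjusted p = 0.000187). AK132472 rose from 1233 and 1188 to 2009, 2414 and 2071 (0.83, limma adjusted p = 0.00511). AF279263, AK034112, AK045740 and AK050117 rose by 0.62 to 0.96 on the log2 scale, and each lost its call without at least 1 library.

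A smaller set held under every setting tried, for which no count over all features is given here. Of members with a mean of at least 100, 19 were called lower and 31 higher in the main fit and in all 14 alternatives (other tests, scalings, pseudocounts and filters, and each library left out). The 19 had log2 changes of 0.90 to 3.15 in size and means of 121 to 863, and the 31 had changes of 0.83 to 4.02 and means of 100 to 2160. After AK082843, the largest decreases of the set were in AK132572, from 352 and 656 to 75.4, 63.4 and 112 (-2.55), and AK041475, from 1338 and 854 to 234, 239 and 174 (-2.32, a 5.08-fold decrease). After AK156724 and AF230110, the largest increase was in AK053343. It stood at 34.2 and 34.7 in Dcr WT and at 208, 414 and 242 in Dcr KO, an 8.36-fold increase. A fit without a filter on low values, which tests more features, ended the calls of AK033782, AK209856, AK177407, AK049592, AK145793, AK017011, AK139582, AK156128, BC066854, AK085074, AK219861, AF279263, AK034112, AK045740, AK050117, AK039449, AK085168 and AK084624 among the transcripts named here. In AK132572, AK041475 and AK053343 the gap between the groups was wider, on the log2 scale, than the range within either.

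Set beside coding features in the same range of read count, GenBank noncoding transcripts had fewer lower calls and about as many higher calls. Among features with a mean of 10 to 100, 8.47% of 614 GenBank members were called lower against 25.2% of 2161 coding features. At 100 to 1000 the shares were 15.0% of 280 and 36% of 2906, and under 10 they were 2.97% of 269 and 5.34% of 1423. At 1000 and above, 2 of 21 members (9.52%) and 20.8% of 10650 coding features were called lower. Higher calls were 7.82% against 11.2% at 10 to 100, 19.3% against 18.9% at 100 to 1000, 5.58% against 3.23% under 10, and 33.3% (7 of 21) against 25.1% at 1000 and above. The shares called lower were thus below those of coding features in all 4 ranges, while the order of the shares called higher differed between ranges.

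Weighting the coding shares by the number of the 1184 members in each range gave 23.1% called lower, against the members' 8.78%, a difference of -14.4 percentage points. For higher calls it gave 11.5% against 10.5%, a difference of -1.01 points, which turned to 0.43 without a filter on low values. Without knockout lines 1, 3 and 4 in turn, the difference in lower calls was -11.6, -11.3 and -12.2 points. It was -6.66 points without a filter and -17.8 points with a filter of 10 in place of 1. The median log2 fold change at 10 to 100 was -0.03 for GenBank members and -0.53 for coding features, and at 100 to 1000 it was -0.04 and -0.35. These are shares of features, which are not replicates. Read counts were not equal within a range: at 100 to 1000 the median mean was 206 for members and 347 for coding features. At 1000 and above it was 1750 and 7913, at 10 to 100 it was 29.5 and 33.6, and under 10 it was 4.76 and 3.47. The part of this in the shares was not tested. Equal read count is also not equal level per length, because transcript lengths are not used here.

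**Figure D3:**
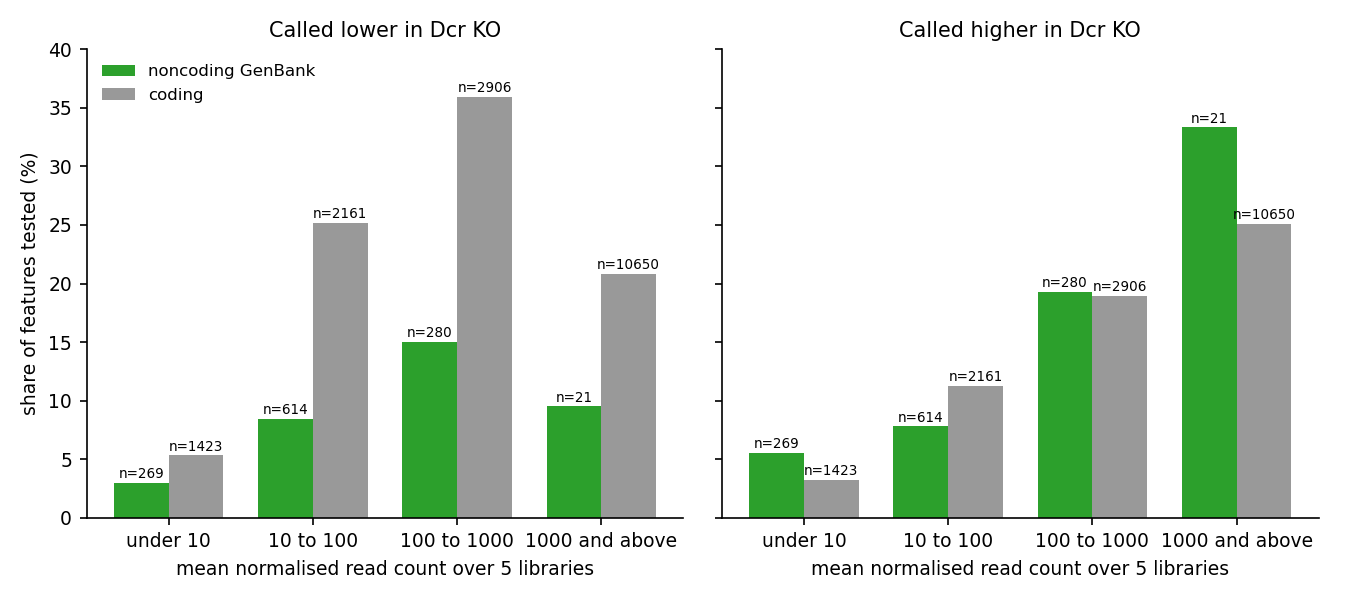
Share of tested features (vertical axis, %) called lower (left) and higher (right) in Dcr KO, by range of the mean normalised read count over 5 libraries (horizontal axis), for GenBank noncoding (green) and coding (grey) features, with the number tested above each bar. At 10 to 100 the bars for lower calls stand at 8.47% and 25.2%, and at 100 to 1000 the bars for higher calls stand at 19.3% and 18.9%.

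The other noncoding sources of the annotation gave mixed values. At 10 to 100, the shares called lower and higher were 9.09% and 8.50% for features from MGI, the mouse genome database, next to 8.47% and 7.82% for GenBank members. They were 19.1% and 8.07% for features from UCSC and 17.4% and 8.72% for noncoding RefSeq features. At 100 to 1000, the GenBank share called lower (15.0%) was below those of MGI (21.4%), RefSeq (20.9%) and UCSC (32.5%), and the share called higher (19.3%) was above theirs (11.7%, 16.8% and 12.5%). Over all levels the median log2 fold change was 0.01 for GenBank, -0.13 for MGI, -0.34 for UCSC and -0.36 for RefSeq noncoding features. Within the class, 96 of the 1090 AK records tested fell and 109 rose, 6 and 8 of the 65 BC records, and 2 and 7 of the 29 others. Sources other than AK hold too few members for a comparison of these shares.

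The 3 knockout lines differed from each other in many members. The range over the lines was at least 1 on the log2 scale in 445 of 1184 members (37.6%), against 14.3% of coding features. By range of read count the order varied: the shares were 77.7% against 76.0% under 10, 36% against 45.2% at 10 to 100, 4.64% against 9.91% at 100 to 1000, and 9.52% (2 of 21) against 0.995% at 1000 and above. The wild-type libraries differed from each other by at least 2-fold in 350 members (29.6%), against 12.1% of coding features over all levels, but in 29.5% against 32.9% at 10 to 100 and 10% against 11.6% at 100 to 1000. Library 1 was the higher in 125 of these and library 2 in 225. Under a mean of 10 these counts were 38 and 103, at 10 to 100 they were 78 and 103, and at 100 to 1000 they were 9 and 19. Coding features gave 326 and 435, 305 and 405, and 169 and 168 in the same ranges. At 1000 and above they gave 152 and 110, and over all levels 952 and 1118. Library 2 also had more reads and the higher fibroblast marker sum. Among the 104 members that fell, library 2 was at least 2-fold above library 1 in 13 and below it in 5. Among the 124 that rose, it was above in 14 and below in 16, with no such counts over all features given here. The part of this difference in the calls was not tested.

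The 4 members of at least median level with the widest range over the lines each had 1 line far from the others. AK142849 had 0 reads in line 1, a count that allows up to 3 reads, and stood at 144 and 295 in lines 3 and 4 and at 121 and 94.9 in Dcr WT. AK163826 stood at 1.77 in line 1 and at 148 and 224 in lines 3 and 4, against 70.4 and 59.3 in Dcr WT. Its log2 fold change of -0.53 did not pass, and without line 1 it turned to 1.48 (limma adjusted p = 0.0395). In the other pair, line 3 was the low one. AF026565 stood at 0 in line 3, at 75.4 and 55.9 in lines 1 and 4, and at 92.5 and 389 in Dcr WT. AK079801 stood at 14.5 in line 3, at 245 and 184 in lines 1 and 4, and at 205 and 289 in Dcr WT. None of these 4 passed the test over all lines. Line 1 was by far the lowest line in the first pair, and line 3 in the second. In AF026565, lines 1 and 4 also lay below both wild-type libraries. Its log2 fold change was -3.55, and -4.58 without wild-type library 1, in a range of -4.66 to -1.53 with 1 library left out.

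**Figure D4:**
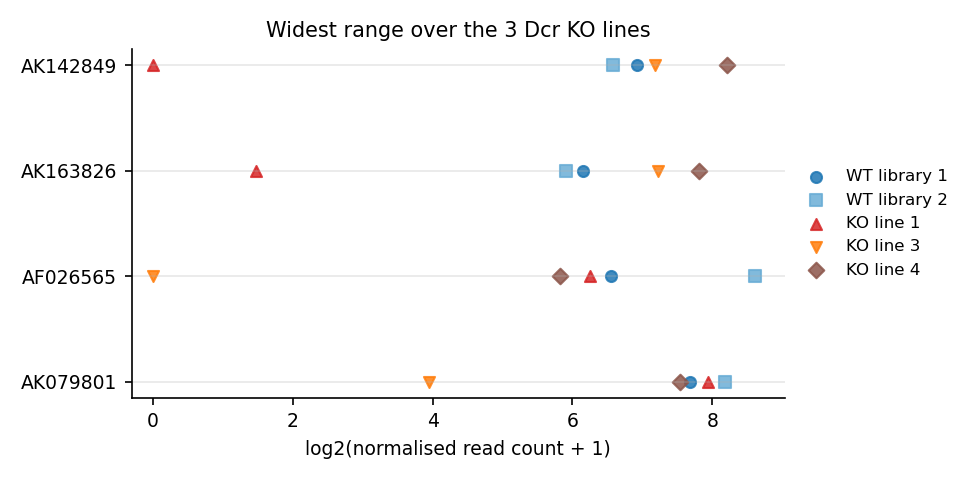
Log2(normalised read count + 1) in each Dicer library (horizontal axis) for the 4 GenBank noncoding transcripts of at least median level with the widest range over the 3 knockout lines, points marked by library. Line 1 lies alone at the left for AK142849 and AK163826, and line 3 for AF026565 and AK079801.

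In the cMyc pair the class leaned towards lower levels in cMyc KO. With 1 library per group there is no replicate check and no test, and the values compare these libraries, not the genotypes. Of the 1109 members in that table, 110 had no read and 230 had at least 20 reads over both libraries. Among the 230, 32 were at least 2-fold lower in cMyc KO (13.9%) and 3 at least 2-fold higher (1.30%), where all 17631 features with that many reads gave 2.06% and 1.43%. The median log2 ratio of the 230 was -0.35, with quartiles of -0.76 and 0.00, against 0.07 for all features and 0.11 for coding features. Of 13606 coding features, 0.610% were at least 2-fold lower and 1.43% higher. Markers of other cell types also differed in the pair: the summed level in cMyc flox and cMyc KO was 1845 and 3226 for the 7 fibroblast markers (Lum at 0 in cMyc flox), 71.7 and 135 for mesoderm, 1606 and 2284 for neural, 72.7 and 76.1 for endoderm (Afp at 0 in cMyc flox) and 1514 and 1511 for trophoblast. Their part in the ratios was not tested. The class took 0.0501% of the cMyc flox reads and 0.0344% of the cMyc KO reads. Ribosomal RNA took 28.1% and 30.0% of the reads. The deposited scaling sets the ratios higher than others would: with total counts, total counts without ribosomal RNA and repeats, or the median coding ratio, all log2 ratios would fall by 0.14, 0.11 or 0.10. The members at least 2-fold lower would then number 43, 40 or 40 of the 230 (18.7%, 17.4% or 17.4%). All features would give 3.41%, 3.02% or 3.01%.

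The gap to coding features was also seen within ranges of read count. With a mean normalised read count of 10 to 100 over the pair, 32 of 209 members (15.3%) were at least 2-fold lower and 0.957% higher, against 1.96% and 5.15% of 3109 coding features. The medians were -0.36 and 0.11. At 100 to 1000 there were 15 members, none of them past 2-fold, with a median of -0.45 against 0.09 for coding features. The exact 95% interval of the ratio, which covers counting error only, lay wholly below 1 for 47 of the 230 members (20.4%) and wholly above 1 for 3 (1.30%). Coding features, with more reads each, gave 16.6% and 35.6%. At 10 to 100 the shares were 17.2% and 0.478% for members and 5.73% and 12.6% for coding features. The median reads over the pair in that range were 37 and 76. At 100 to 1000 the interval lay below 1 for 11 of the 15 members and above 1 for 2, against 18.9% and 33.4% of coding features. Median reads there were 451 for members and 775 for coding features. Other features outside the coding class also leaned lower, with 10.8% of 1283 unannotated loci, 7.43% of 350 UCSC and 7.27% of 165 MGI features at least 2-fold lower, and medians of -0.32, -0.20 and -0.35. Noncoding RefSeq features (2.80%, median -0.12) and pseudogenes (1.40%, median 0.01) leaned less. Counts of 2-fold changes depend on the minimum of reads: with at least 50 reads, 10 of 80 members were lower and 0 higher. All features gave 0.775% and 0.701% at that minimum.

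Among members with at least 50 reads, the largest decrease was in AK088487, with 55 reads in cMyc flox and 18 in cMyc KO. After scaling its ratio was 0.281, with an interval of 0.156 to 0.487. AK136785 had 53 and 22 reads (0.357), AK045025 had 68 and 34 (0.430) and AK157050 had 40 and 20 (0.430). Transcripts with the most reads moved less but were measured more closely. AK078503 had 820 reads in cMyc flox and 547 in cMyc KO, a ratio of 0.574 (interval 0.514 to 0.640), AK145544 had 415 and 263 (0.545) and AK140886 had 326 and 198 (0.522). AK209856 went the other way, with 410 and 565 reads and a ratio of 1.18 (interval 1.04 to 1.35).

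Among members with at least 50 reads, the largest increase in the pair was in AF026565, the transcript with no read in knockout line 3 of the Dicer set. It had 182 reads in cMyc flox and 401 in cMyc KO, a ratio of 1.89 (interval 1.59 to 2.27). The next 3 at that minimum, AK089475 (19 and 31 reads), AK044818 (21 and 34) and AK142278 (60 and 96), had intervals that included 1. The 3 members past 2-fold higher had larger ratios from fewer reads: AK036511 had 5 and 16, AK088668 had 9 and 23, and AK156724 had 7 and 26. Only the interval of AK156724, 1.35 to 8.71 around a ratio of 3.19, lay above 1 among these 3.

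In the cMyc pair, members called and not called in Dcr KO gave much the same shares. Of the 104 that fell, 41 had at least 20 reads in the cMyc pair, and 6 of these (14.6%) were at least 2-fold lower in cMyc KO, with a median log2 ratio of -0.31. Of the 124 that rose, 32 had such reads, 5 (15.6%) were at least 2-fold lower and the median was -0.44. Of the members not called, 157 had such reads, 21 (13.4%) were lower and the median was -0.36. All 3 shares lie near the 13.9% of the class. Coding features gave 0.413%, 0.785% and 0.630% in the same order, with medians of 0.15, 0.06 and 0.11.

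The 6 members lower in both knockouts were AK157050, AK136510, BC066854, AK052955, AK085074 and AK142186. AK157050 stood at 1298 and 1224 in Dcr WT and at 659, 458 and 677 in Dcr KO, with no overlap (log2 fold change -1.10, limma adjusted p = 0.00534). Its cMyc ratio of 0.430 had an interval of 0.238 to 0.753. BC066854 stood at 390 and 735 against 192, 219 and 225 (-1.34), with 30 and 14 reads in the cMyc pair. AK052955 stood at 426 and 442 against 216, 257 and 188 (-0.99), with 32 and 13 reads. Of the 6, AK157050 alone kept its Dicer call whichever library was left out. The call of AK136510 (1141 and 1170 against 753, 845 and 758, log2 fold change -0.56) was also lost with edgeR (adjusted p = 0.0569). AK085074 had 282 and 590 against 110, 165 and 217 (-1.36), and AK142186 had 185 and 164 against 79.9, 88.6 and 62.0 (-1.19).

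Some members took opposite directions. AK034834, AK039449, AK045754, AK049712 and AK085168 rose in Dcr KO and were at least 2-fold lower in cMyc KO. AK034834, with the highest count of these 5, had 84 reads in cMyc flox and 48 in cMyc KO, a ratio of 0.491 (interval 0.337 to 0.709). AK085168 had 21 and 5 reads (0.205), and the interval of AK049712 (14 and 6 reads) reached 1.02. The Dicer calls of AK039449, AK045754 and AK085168 were lost without line 3 or line 4. AK156724 was the 1 member that rose in Dcr KO and was past 2-fold higher in cMyc KO.

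**Figure D5:**
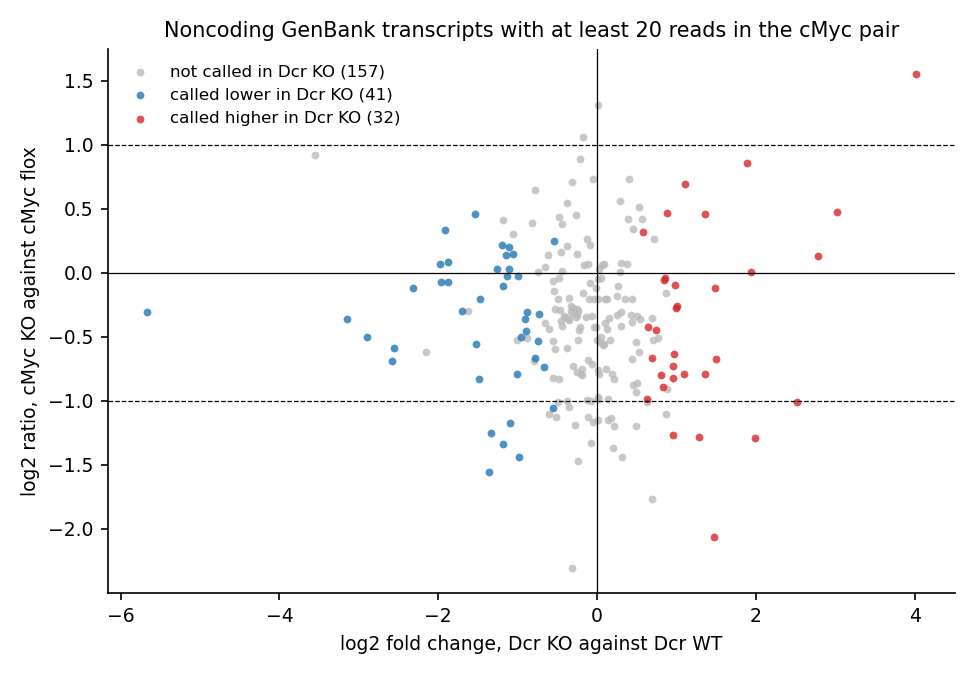
Log2 ratio of cMyc KO to cMyc flox (vertical axis, log2 of the value + 1 in each) against the log2 fold change of Dcr KO against Dcr WT (horizontal axis) for the 230 GenBank noncoding transcripts with at least 20 reads in the cMyc pair, coloured by the Dicer call. Blue, red and grey points all spread mostly below 0 on the vertical axis, with medians of -0.31, -0.44 and -0.36, and the red point at the upper right is AK156724.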

How the data were processed

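The authors deposited 1 table for the Dicer libraries and 1 for the cMyc libraries, each holding a normalised signal for every feature, that is, the reads counted divided by a factor of the library. In every column 100% of these deposited values were whole multiples of 1 read within 0.01 read, so reads could be recovered. Per the submitters' processing notes, TopHat, Bowtie, DESeq and the build mm9 were used, with no role stated. The counting method, its strand setting and its filters were not given in the sources used here. Values of records that overlap other genes or have near-identical copies are therefore uncertain. Every value column was tied to a sample by its name. The 4 chromatin immunoprecipitation libraries are not analysed here.

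The prefix set the class, while the rules for naming members and the gene lists were chosen with earlier results of these data known. The Dicer comparison was fitted on log2(value + 1) over the whole Dicer table with limma 3.58.1 under R 4.3.3 (trended prior), for features that reached 1 in 2 or more libraries. The threshold was a Benjamini-Hochberg adjusted p under 0.05. Alternatives were edgeR 4.0.16 (quasi-likelihood) and DESeq2 1.42.0 on recovered reads, 3 scalings, 2 pseudocounts, 2 filters and each library left out, 14 in all. On simulated counts for 42005 features of the Dicer comparison, limma called 49% of 2-fold and 95% of 4-fold changes, and 0.012% of unchanged features. The changed features were drawn only from those with a mean of at least 100. The shares of 49% and 95% therefore do not cover lower features, and the class median was 31.5. Only 100 features were changed by each fold, whereas 13444 of 42358 were called in the data, so the simulated Benjamini-Hochberg cutoff was stricter. Dispersion followed a trend with the read count, and no difference between lines or cultures was added. These 3 shares are therefore not rates of true and false calls in the Dicer comparison. Of 19683 coding RefSeq identifiers, 19359 matched a symbol in the RefSeq annotation of GRCm38.p6, used for names only. In the cMyc pair, ratios used log2(value + 1) differences and exact binomial 95% intervals from reads. Reads carry no molecular identifiers, so intervals and floors (3 reads) cover counting error only.

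Transcripts were named by rule: the 6 with the highest mean, the 8 largest decreases and 8 largest increases called at or above the median mean, the 4 with the widest range over the knockout lines, the 4 largest increases and 4 largest decreases in the cMyc pair with at least 50 reads, and the 6 of highest mean that were lower in both. Others (at a mean of at least 1000, with no read in 1 genotype, in every alternative, AK145544, AK145778, the cMyc increases past 2-fold and the opposite movers) were named after their values were seen.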

Additional observations from a re-analysis of the deposited data

How the results depend on the processing

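Without a filter on low values, calls over all features went from 6273 lower and 7171 higher to 3967 and 4169. Counts of GenBank noncoding transcripts that fell and rose in Dcr KO (104 and 124) became 65 and 80 without that filter. With 1 library left out they ranged from 57 to 96 and from 56 to 141, and 37 and 47 members were called in each of these fits. No count over all features stands beside the 37 and 47. The other 8 alternatives gave 93 to 122 and 98 to 127. A fit without 1 wild-type library assumes that the lone library varies like the knockout lines. The gap to coding features in lower calls, -14.4 points, was -6.66 without a filter, -17.8 with a filter of at least 10, and -13.6 to -11.3 with 1 library left out. For higher calls (-1.01) it was 0.43 without a filter and -2.27 to -0.11 with 1 library left out. The difference in the share of reads (0.000228 points) was -0.00108 with coding reads as the denominator and -0.00687 to 0.00733 with 1 library left out. AK163826 (-0.53) turned to 1.48 without Dcr KO line 1, in a range of -1.69 to 1.48 with 1 library left out. The causes were not tested. With at least 10 reads in the cMyc pair, 60 and 11 of 378 members were lower and higher (15.9% and 2.91%). All features gave 3.84% and 2.34%. With at least 50 reads, 10 and 0 of 80 members were, against 0.775% and 0.701% of all features. A pseudocount of 5 gave 17 and 1 of 230 members (7.39% and 0.435%), against 1.02% and 0.771%. At 1.5-fold the counts were 77 and 11 of 230 (33.5% and 4.78%), against 8.71% and 6.48%. Of members that fell in Dcr KO, 1 of 58 was higher in cMyc KO with at least 10 reads and 2 of 16 were lower with at least 50. Of those that rose, 10 of 50 were lower with at least 10 reads, and 1 of 13 was lower and 0 higher with at least 50. No paired analysis was possible, because no label pairs a knockout line with a wild-type library and each cMyc group has 1 library. Of the members, 413 had too few reads to be tested, and low read counts widen the intervals of the cMyc ratios.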

Other observations

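Levels in the control cells of the Dicer and cMyc sets were broadly alike across the class. Over 1062 members tested in the Dicer set and present in both tables, Spearman's rho between the Dcr WT mean and the cMyc flox value was 0.82. This is given as a description across transcripts, which are not independent. AK145778 departed from this order. It stood at 34.2 and 42.9 in Dcr WT and at 44.4, 39.0 and 12.2 in Dcr KO, but had 241 reads in cMyc flox and 210 in cMyc KO, although those libraries hold fewer reads. Of the 488 members outside the cMyc table, 283 also had no read in any Dicer library, 122 were tested, and the highest mean was 32.3.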
